A study of Rattus norvegicus with 6 samples.

Results

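Genes of the thick ascending limb, the last part of the loop of Henle in the kidney tubule, were followed in the renal cortex of male Sprague-Dawley rats. The study gave 3 rats corn oil, the vehicle, and 3 rats o-anthranilic acid at 1000 mg/kg/day, in both cases for 4 weeks. The animals were bought at 5 weeks of age and fed a basal diet. Cy3-labelled RNA of each animal was measured on its own single-colour Agilent array, and the labels give the 3 samples of a group as biological replicates. The members were chosen by name, as 9 genes for transport and secreted proteins of the limb. All non-control probes whose accession led to 1 of these 9 symbols were taken. This gave 16 probes of 8 genes, out of 15277 genes named on the array and 30709 features tested. No probe was matched to Slc12a1, the sodium-potassium-chloride cotransporter of the limb, and it was not analysed here. All 16 probes were well above background on all 6 arrays, so none was lost to the filter on dim probes. The labels name no sorting of cells, and each value is an average over all cells of the cortex. Signal of a member from other segments was thus not separated from that of the limb.

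The thick ascending limb takes up sodium, potassium and chloride from the tubule fluid but lets no water through, and so dilutes the urine. Potassium returns to the fluid through the channel encoded by Kcnj1, and chloride leaves across the basolateral membrane through channels that need the subunit encoded by Bsnd. The voltage that results drives cations between the cells through claudin pores, with Cldn10 in sodium-selective junctions and Cldn16 with Cldn19 in junctions that pass calcium and magnesium. The calcium-sensing receptor, encoded by Casr, slows this divalent transport. Cells of the limb also secrete uromodulin, encoded by Umod, the most abundant protein of normal urine, and the limb and the distal convoluted tubule make the precursor of epidermal growth factor, encoded by Egf.

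None of the 8 measured genes passed the test between treated and vehicle animals. At a Benjamini-Hochberg adjusted p under 0.05, limma called 0 of the 8 genes and 0 of 30709 features, or 0%, in the whole comparison. Egf stood slightly lower in all 3 treated animals than in any vehicle animal. Cldn19 had the lowest fold change of the 8, carried by treated animals 2 and 3, and Cldn10 the highest. Umod, Cldn16 and Casr had means that were nearly equal in the groups, and the sign of each of these small differences changed under other settings. At an unadjusted p under 0.05 there was 1 of the 8 members, Egf, and 8.32% of all features. That count was 0 without vehicle animal 1 or 3 and without treated animal 2 or 3. The groups did not overlap for 1 of the 8, again Egf, and for 14.6% of all features. A count of 1 gene in 8 is near the background in both cases. The median log2 fold change of the 8 members was -0.11, against -0.01 over all features, with 3 members above 0 and 5 below. In whole cortex, fewer cells of the limb and less RNA per cell cannot be told apart.

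The 2 secreted proteins had different patterns. Levels are given as log2 signal after subtracting the array's 75th percentile, so a value of 0 is the brightness that 3 in 4 probes do not reach. Umod (NM_017082) stood at 8.72, 8.13 and 8.90 in the vehicle animals against 8.73, 8.64 and 8.38 in the treated animals. The treated values all lay inside the vehicle range, with vehicle animal 2 the lowest of the 6 and vehicle animal 3 the highest. The means were 8.58 ± 0.40 (SD, n = 3) for vehicle animals against 8.58 ± 0.18 (SD, n = 3) after treatment. The log2 fold change was 0.00 ± 0.22 (SE), with a 95% interval from -0.53 to 0.53, so these data do not show whether Umod differed by less than that. The second probe of Umod stood at 8.58, 8.08 and 8.70 in vehicle and 8.58, 8.45 and 8.22 in treated animals. It placed the 6 animals in the same way, with vehicle animal 2 lowest and vehicle animal 3 highest, and its fold change on the log2 scale was -0.04 ± 0.19 (SE). Without vehicle animal 2 the Umod fold change was -0.23, and without vehicle animal 3 it was 0.16.

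Egf (NM_012842) stood at 5.16, 5.09 and 5.18 in the vehicle animals against 4.94, 4.95 and 4.99 in the treated animals. The vehicle animals were all above the treated animals, and the range over all 6 arrays, 0.25, was the smallest among the 8 members. The means were 5.14 ± 0.05 (SD, n = 3) and 4.96 ± 0.03 (SD, n = 3). Its log2 fold change was -0.19 ± 0.07 (SE), which is 1.14-fold lower, with a 95% interval from -0.36 to -0.02, an unadjusted p of 0.0350 in limma's moderated test and an adjusted p of 0.576. The second probe of Egf stood at 2.90, 2.78 and 2.82 in vehicle and at 2.52, 2.66 and 2.61 in treated animals. It separated the groups as well, at -0.23 ± 0.08 (SE) with an adjusted p of 0.523 in the limma fit of every probe. When each array was left out in turn the fold change of Egf stayed between -0.22 and -0.17, and it was -0.14 after normexp background correction.

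**Figure D1:**
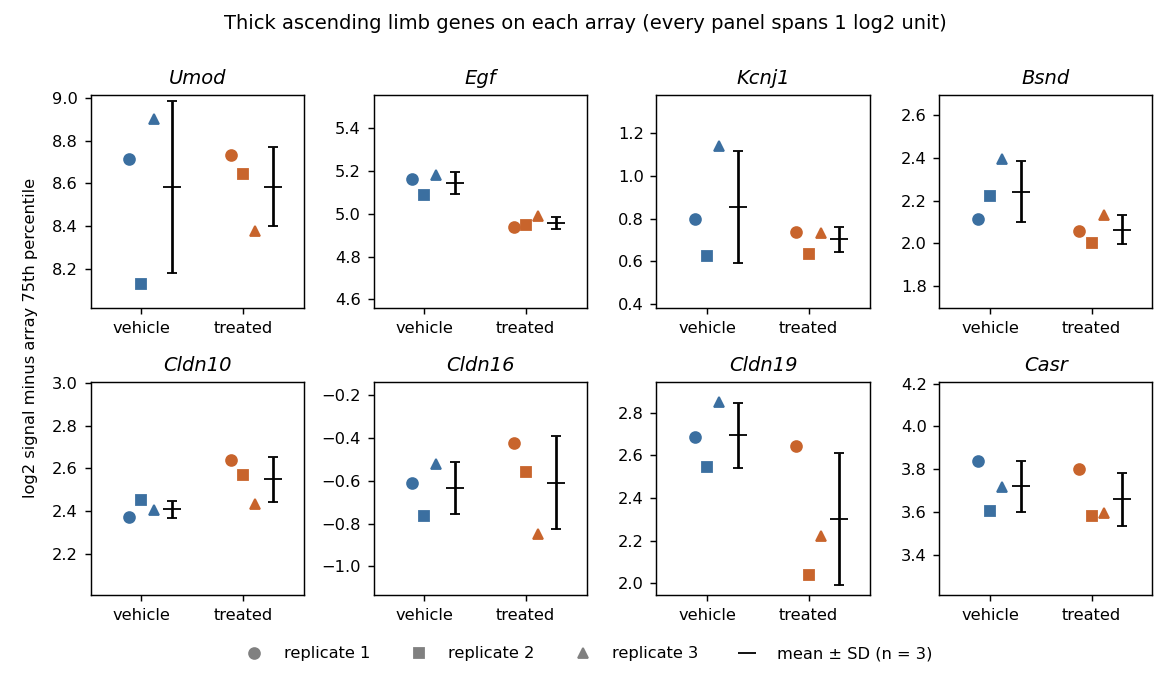
Each panel shows 1 gene, with the log2 signal minus the array's 75th percentile on the vertical axis. Points are animals (circle, square and triangle for replicates 1, 2 and 3), bars are the mean ± SD of 3 animals, and every panel spans the same 1 log2 unit. The Egf groups are tight and separate, Umod and Kcnj1 are spread mainly among vehicle animals, and Cldn19 mainly among treated animals.

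The apical potassium channel and the chloride channel subunit both had lower treated means, within the spread of the animals. Kcnj1 (NM_017023), which recycles potassium to the tubule fluid for the cotransporter, stood at 0.80, 0.62 and 1.14 in vehicle and at 0.74, 0.64 and 0.73 in treated animals. Vehicle animal 3 was alone above the others, and the other 5 lay between 0.62 and 0.80. On the log2 scale Kcnj1 differed by -0.15 ± 0.14 (SE), with a 95% interval from -0.49 to 0.19, and it was -0.01 without vehicle animal 3. The second Kcnj1 probe showed the same animal apart, at 0.17, 0.16 and 0.69 in vehicle against 0.08, 0.19 and 0.19 in treated animals.

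Bsnd (NM_138979), which encodes barttin, stood at 2.11, 2.22 and 2.39 in vehicle and at 2.06, 2.00 and 2.13 in treated animals. The groups overlapped only through treated animal 3, which lay just above vehicle animal 1. The log2 fold change was -0.18 ± 0.10 (SE), with a 95% interval from -0.41 to 0.06 and an adjusted p of 0.669 from limma. The other probe of Bsnd, at 0.83, 0.98 and 0.98 in vehicle and 0.93, 0.76 and 0.97 in treated animals, had a smaller difference of -0.04 ± 0.09 (SE). The probes of Bsnd therefore had differences of unequal size in 1 direction.

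The claudins lay at both ends of the 8 members. Cldn19 (NM_001008514) stood at 2.68, 2.55 and 2.85 in vehicle and at 2.64, 2.04 and 2.22 in treated animals. Treated animals 2 and 3 were below every vehicle animal, while treated animal 1 was within the vehicle range. The means were 2.69 ± 0.15 (SD, n = 3) and 2.30 ± 0.31 (SD, n = 3). The log2 fold change was -0.39 ± 0.17 (SE), or 1.31-fold lower, with a 95% interval from -0.81 to 0.03, an unadjusted p of 0.0634 and an adjusted p of 0.616 from limma. The other 2 probes of Cldn19 had fold changes of -0.48 ± 0.19 and -0.46 ± 0.18 (SE), and placed treated animals 2 and 3 lowest in the same way, at -0.23 and 0.02 and at -0.22 and 0.00. The lowest vehicle values of these 2 probes were 0.33 and 0.26, in animal 2. The size of the Cldn19 difference depended on single animals. It was -0.56 without treated animal 1 and -0.26 without treated animal 2, which was alone on its slide, so the fit with the slide as a block also gave -0.26.

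Cldn16 (NM_131905), the partner of Cldn19 in the calcium and magnesium pore, stood at -0.61, -0.77 and -0.52 in vehicle and at -0.42, -0.56 and -0.85 in treated animals. The highest and the lowest of the 6 were both treated animals, 1 and 3. Its log2 fold change was 0.02 ± 0.13 (SE), with a 95% interval from -0.30 to 0.35. The second probe of Cldn16 had a fold change of -0.06 ± 0.11 (SE) and also gave treated animal 3 the lowest value, at -1.16. Cldn16 and Cldn19 thus had different orders of the treated animals, with animal 3 lowest for Cldn16 and animal 2 lowest for Cldn19.

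Cldn10 (NM_001106058), measured by 1 probe, stood at 2.37, 2.45 and 2.40 in vehicle and at 2.64, 2.57 and 2.43 in treated animals. Treated animals 1 and 2 lay above all vehicle animals, and treated animal 3 was inside the vehicle range. For Cldn10 the log2 fold change was 0.14 ± 0.08 (SE), with a 95% interval from -0.06 to 0.34 and an adjusted p of 0.692 from limma. It ranged from 0.09 without treated animal 1 to 0.20 without treated animal 3. As a description of the members with the highest and the lowest fold change, which were chosen after their values were seen and not tested, the log2 ratio of Cldn10 to Cldn19 was set relative to its vehicle mean. It stood at -0.03, 0.19 and -0.16 in vehicle and at 0.28, 0.82 and 0.50 in treated animals. With the other Cldn19 probes the treated values were 0.36, 0.94 and 0.56, and 0.38, 0.89 and 0.53, against a highest vehicle value of 0.26 and 0.29. Choosing the members by their fold change moves the groups of this ratio apart by itself. The ratios also share the Cldn10 probe and the Cldn19 target, so they are not separate measurements.

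Casr (NM_016996), which senses calcium on the basolateral side, stood at 3.84, 3.60 and 3.72 in vehicle and at 3.80, 3.58 and 3.59 in treated animals. Treated animals 2 and 3 lay just below the lowest vehicle animal, and treated animal 1 was inside the vehicle range. The log2 fold change was -0.06 ± 0.10 (SE), with a 95% interval from -0.31 to 0.19. The probes of Casr disagreed in sign. The second stood at 1.48, 1.11 and 1.38 in vehicle and at 1.41, 1.19 and 1.71 in treated animals, with a fold change of 0.11 ± 0.16 (SE), and here treated animal 3 was the highest of the 6 while the first probe had it among the lowest.

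**Figure D2:**
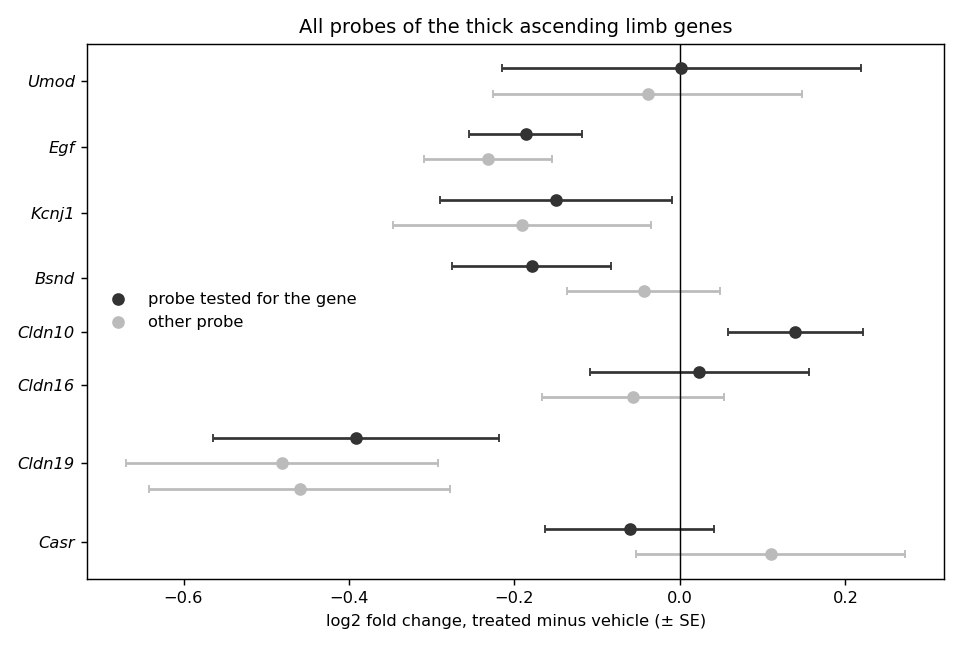
Log2 fold changes (treated minus vehicle) with standard errors for all 16 probes of the 8 genes, in black for the probe tested for the gene and in grey for the others. The 3 Cldn19 probes and the 2 Egf probes lie to the left of 0, while the probes of Umod, Cldn16 and Casr lie on both sides of it.

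Of the 8 genes, 7 had more than 1 probe, and for 3 of them, Umod, Cldn16 and Casr, the probes had fold changes of both signs. When every probe was tested on its own, 4 of the 16 member probes had an unadjusted p under 0.05, 2 of Egf and 2 of Cldn19, against 8.45% of 41551 probes. Probes of 1 gene share their target, so these are values of 2 genes and not separate measurements.

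**Figure D3:**
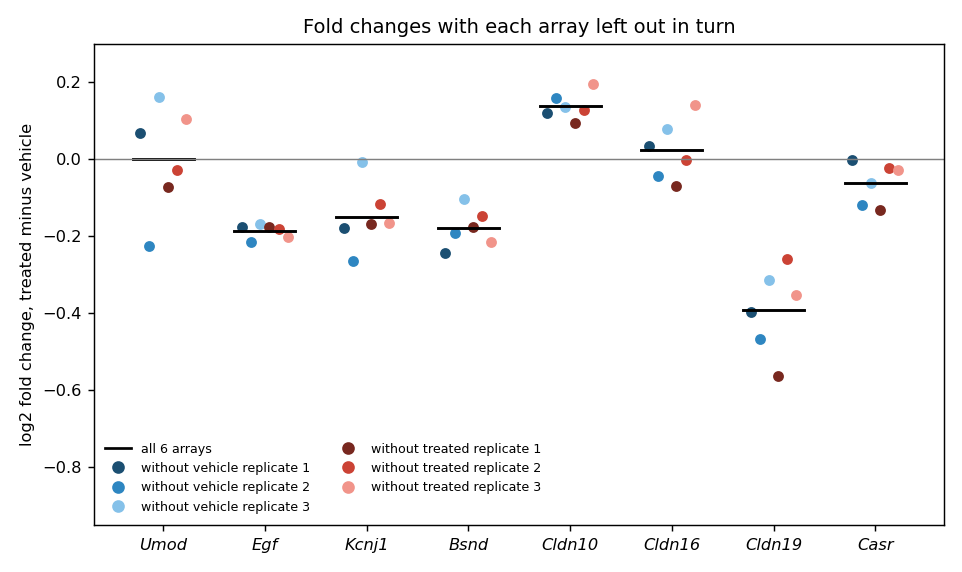
Log2 fold changes (vertical axis) of the 8 genes over all 6 arrays (black line) and with each array left out (points, blue for vehicle and red for treated animals). All genes but Umod and Cldn16 keep their sign. Egf ranges from -0.22 to -0.17, Cldn10 from 0.09 to 0.20, Umod from -0.23 to 0.16 and Cldn19 from -0.56 to -0.26.

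The promoter windows of Egf, Cldn10 and Cldn19 are shown because these members had the separate groups, the highest and the lowest fold change. Each is the 250 bases before a RefSeq transcript start in GRCr8, 5′ to 3′ on the gene's strand. Capitals mark matches on either strand to 2 motifs, which were chosen after the windows were read. The first was the TATA box, searched for as TATAAA, which lies before the start of many genes. The other was the GC box, bound by SP1 and searched for as GGGCGG. RefSeq held 11 windows for the 9 members.
Egf, chr2:220976298-220976547, minus strand: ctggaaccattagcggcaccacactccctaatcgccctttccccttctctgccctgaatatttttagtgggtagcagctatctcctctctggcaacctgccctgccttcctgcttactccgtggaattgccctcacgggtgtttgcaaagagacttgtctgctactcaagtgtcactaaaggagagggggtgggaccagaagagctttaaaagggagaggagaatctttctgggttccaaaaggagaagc
Cldn10, chr15:102269608-102269857, plus strand: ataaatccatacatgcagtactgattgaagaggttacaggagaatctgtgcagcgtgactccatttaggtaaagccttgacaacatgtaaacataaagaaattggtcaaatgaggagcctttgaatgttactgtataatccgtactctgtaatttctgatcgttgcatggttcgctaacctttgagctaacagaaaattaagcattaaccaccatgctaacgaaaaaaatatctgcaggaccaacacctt
Cldn19, chr5:138148325-138148574, plus strand: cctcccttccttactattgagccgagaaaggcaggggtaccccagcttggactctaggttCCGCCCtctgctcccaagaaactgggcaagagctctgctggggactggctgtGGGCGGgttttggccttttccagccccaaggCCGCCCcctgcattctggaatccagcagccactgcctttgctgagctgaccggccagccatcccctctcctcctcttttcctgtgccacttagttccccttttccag
The Cldn19 window held 3 GC boxes and no other of the 11 held any, while 30.5% of all 33469 windows of this length held at least 1. The TATA box was in 2 of the 11 windows, those of Umod and of 1 start of Kcnj1, and in 12.9% of all windows. The Egf and Cldn10 windows matched neither motif. The bases of these windows were G or C for 51.6% in Egf, 38.0% in Cldn10 and 60.0% in Cldn19. A match says only that the letters are present.

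The order of the animals differed among the members. Relative to each gene's vehicle mean, the mean over the 8 members was 0.01, -0.14 and 0.13 in vehicle animals 1, 2 and 3, against 0.01, -0.14 and -0.17 in the treated animals. Vehicle animal 2 and treated animals 2 and 3 were thus low to a like degree, and the groups overlapped. Over the 6 arrays, Umod had its highest Pearson r among the members with Cldn16, 0.802, and its lowest with Cldn10, 0.09, as a description with no test. By Spearman's rho Kcnj1, at 0.886, came before Cldn16, at 0.829. The named genes with the highest Pearson r with Umod, among 11236 that were well above background on all arrays, were Frmd4a, Chrna1 and Ugt8, at 0.997, 0.994 and 0.987. Cldn16 came 375th in that order.

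Genes that work with the members were taken as 6 companion lists of 44 genes, of which 40 were tested. limma called 0 of them after adjustment over all features. At an unadjusted p under 0.05 there were 3, all higher, with Cldn3 and Prss8 among them. Over all features this share was 8.32% in either direction, with 1082 higher and 1473 lower of 30709. The groups did not overlap for 8 of the 40, against 14.6% of all features. The median log2 fold change of the 40 was -0.01, with 18 above 0 and 22 below.

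Among the 7 tested salt transport partners the median log2 fold change was -0.04. Atp1b1, the beta subunit of the sodium pump, had the lowest, -0.11 ± 0.07 (SE), and Slc9a3, a sodium-proton exchanger, the highest, 0.17 ± 0.27. Atp1b1 stood at 8.38, 8.39 and 8.42 in vehicle and at 8.26, 8.33 and 8.27 in treated animals, without overlap of the groups. Regulators of the cotransporter, which are kinases, their partners and sorting proteins, had a median of 0.01 over 10 genes, from Wnk1 at -0.15 ± 0.09 to Cab39l at 0.14 ± 0.07. Hormone receptors and the cyclic AMP genes behind them had a median of -0.02 over 7 genes, from Pth1r, the parathyroid hormone receptor, at -0.13 ± 0.09 to Gcgr, the glucagon receptor, at 0.12 ± 0.13. None of the 3 lists had a member at an unadjusted p under 0.05.

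Partners of the tight junction had a wider spread, from Cnnm2, a membrane protein of magnesium handling, at -0.24 ± 0.12 (SE) to Cldn3 at 0.58 ± 0.22. Cldn3, a sealing claudin of the limb and of other segments, stood at 1.04, 0.40 and 0.87 in vehicle and at 1.46, 1.57 and 1.01 in treated animals. Only treated animal 3 overlapped the vehicle animals. The second probe of Cldn3 had a fold change of -0.04 ± 0.19, so the probes of this gene differed. Cldn14, which blocks the pore of Cldn16 and is raised by the calcium-sensing receptor, is named here after its values were seen. Its tested probe stood at -4.25, -3.92 and -3.95 in vehicle and at -3.35, -3.99 and -3.74 in treated animals. The groups overlapped on it, with a log2 fold change of 0.35 ± 0.18 (SE) and an adjusted p of 0.653 in the limma fit of every probe. Its other probe was dim, passing the background test in 2 vehicle and all 3 treated animals, and stood at -5.35, -5.16 and -6.10 in vehicle and -3.62, -3.81 and -4.15 in treated animals. All treated animals were above all vehicle animals on that probe, where 14.6% of all features had groups without overlap. Its log2 fold change was 1.67 ± 0.27 (SE). In the limma fit of every probe the unadjusted p was 0.000747 and the adjusted p 0.338. The 2 probes of Cldn14 thus gave differences of unlike size, and neither passed the adjusted test.

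For the 7 tested transcription factors the median on the log2 scale was -0.03, with Ppargc1a, a coactivator of mitochondrial genes, lowest at -0.17 ± 0.07 (SE). Esrrb was not well above background on enough arrays to be tested. Among genes that process or bind the secreted proteins, Hpn, the protease that releases uromodulin, had a fold change of -0.15 ± 0.07, although its 3 probes ranged from -0.17 to 0.00. Prss8, another membrane-bound protease, was at 0.27 ± 0.09, and Egfr, the receptor of epidermal growth factor, at -0.34 ± 0.19.

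**Figure D4:**
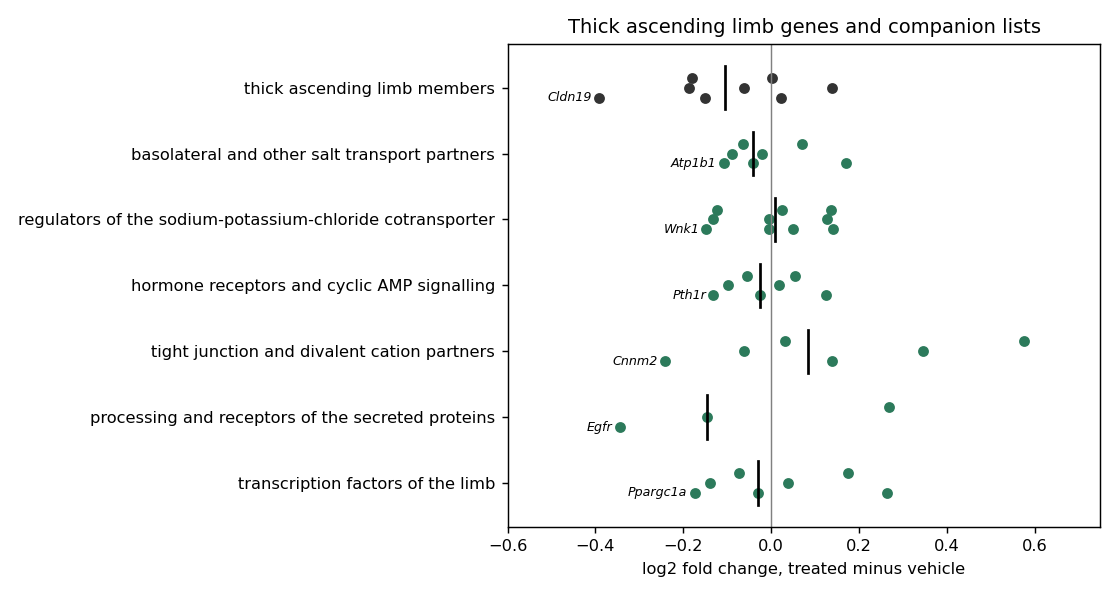
Log2 fold changes (horizontal axis, treated minus vehicle) of the 8 members (black) and of the tested genes of the 6 companion lists (green). Each point is 1 gene, the vertical lines are medians, and the lowest gene of each list is named. The medians lie between -0.15 and 0.08.

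Marker genes of other cell types were read beside the members, and their part in the values of the limb was not tested. The 8 proximal tubule markers and the 5 medullary markers were well above background on all arrays. Summed over its tested genes on the linear scale, relative to the 75th percentile, the proximal tubule list ranged from 1620 to 1714 in vehicle and from 1664 to 1815 in treated animals. The medullary list ranged from 16.9 to 25.0 and from 23.1 to 39.5. Of its 5 genes only Cryab, a small heat shock protein, was above 0, at a log2 fold change of 0.92 ± 0.33 (SE). The other 4 were below 0 and the list's median was -0.14. Cryab stood at 4.10, 3.41 and 3.84 in vehicle and at 5.04, 5.05 and 4.02 in treated animals. Slc7a13, of the proximal tubule list, is named after its values were seen. It stood at 6.35, 4.41 and 4.83 in vehicle and at 6.90, 6.78 and 5.46 in treated animals. Its log2 fold change was 1.18 ± 0.61 (SE), against a list median of 0.06. Treated animals 1 and 2 were highest for both genes, and the groups overlapped. The sum over the 4 tested genes of the distal convoluted tubule, the next segment, ranged from 27.0 to 27.9 and from 25.8 to 29.2. The members themselves ranged from 344 to 549 and from 393 to 489. That sum was mostly Umod, with a vehicle mean of 8.58 on the log2 scale against 5.14 for Egf, the next brightest member. It therefore says little about the other members. Slc12a3, the cotransporter of the distal convoluted tubule, had a fold change (log2) of 0.06 ± 0.11 (SE), although its 3 probes ranged from -0.25 to 0.06. Aqp2, the water channel of the collecting duct, had a fold change (log2) of -0.21 ± 0.10. Of the macula densa list, 2 of 5 genes were tested, with Nos1, Ptgs2 and Pappa2 not among them. The lists with the highest medians were 3 erythrocyte genes at 0.40, 4 genes of tubular injury at 0.25 and 4 genes of mural cells and fibroblasts at 0.16. Single arrays moved the latter pair, with tubular injury at 0.12 without vehicle animal 1 and 0.45 without vehicle animal 3, and mural cells and fibroblasts at 0.05 without treated animal 3 and 0.29 without treated animal 2. Within the injury list all 4 genes were above 0, from Lcn2 at 0.15 ± 0.39 (SE) to Havcr1, a dim gene, at 0.72 ± 0.19. limma called 0 of the 56 tested genes in the 12 marker lists, and 0 of all 30709 features. At an unadjusted p under 0.05 there were 7 of the 56, all higher. Over all features this share was 8.32% in either direction, with 1082 higher and 1473 lower of the 30709.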

How the data were processed

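The authors deposited Agilent Feature Extraction scanner output, version 10.7 per the submitters' processing notes, 1 file per array, and the analysis starts from its processed signal intensity, which per the file headers is already background-subtracted. The deposited value table holds each value as a ratio with column medians between 0.103 and 0.106. It matched the scanner files under other replicate numbers (vehicle columns 1, 2 and 3 matched vehicle files 3, 1 and 2), and was used only as an alternative. The deposited well-above-background flag, another 0 or 1 column, served as the filter.

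Of 62976 spots per array, 61526 were used, after control spots, 84 external RNA control spots and 47 spots flagged as outliers were left out. Each array's 75th percentile was subtracted from log2 intensity. Spots were used as they were, without averaging by probe, and those well above background on at least 3 arrays were kept. A gene was tested on 1 probe, with its other probes reported beside it. Accessions were named through RefSeq, which gave 27435 spots a name. Between 63.7% and 69.3% of probes were above background, and no spot used was saturated. The number of arrays limits the precision. limma 3.58.1 in R 4.3.3 compared 3 treated with 3 vehicle arrays over 30709 features, with Benjamini-Hochberg adjustment at 0.05. The procedure was tested on simulated data. Alternatives changed the background correction, scaling, filter, probe rule, variance model, replicate block, slide and arrays.

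The text names every member with every probe, the highest and lowest gene of each companion list, a few set genes (some list genes are not reported here), and the 3 genes most like Umod. The members and lists were chosen with earlier results of these data known.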

Additional observations from a re-analysis of the deposited data

How the results depend on the processing

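limma called 0 of the 8 members under all 20 alternatives, and their median log2 fold change stayed below 0, from -0.20 without vehicle replicate 2 to -0.03 without vehicle replicate 3. Over all features, calls went from 0 to 5 with normexp background correction and with a variance trend and robust fit, 1 when probes had to be above background on all arrays, 2 with probes averaged per gene, and 3 with the slide as a block or with only the slide that holds both groups. Leaving out 1 array gave 0 to 3. The Umod fold change reversed to -0.019 with its probes averaged and -0.028 with either slide setting, and ranged from -0.23 to 0.16 when 1 array was left out. Cldn16 reversed to -0.0080 with normexp, -0.017 with its probes averaged and -0.0022 with either slide setting, and ranged from -0.070 to 0.14 when 1 array was left out. Casr reversed to 0.024 with its probes averaged. The causes were not tested. Egf, Kcnj1, Bsnd, Cldn10 and Cldn19 kept their direction under all 20. Not all of these could show a change. Both filter settings, every probe on its own, the variance trend and the replicate block returned the main fold changes of the members. Both slide settings gave the same values as leaving out treated animal 2. The count of members at an unadjusted p under 0.05, which was 1, was 0 under 8 alternatives (no filter, the replicate block, both slide settings and 4 of the fits without 1 array) and 2 under 3 others. Leaving out 1 array moved the median of the tight junction list between -0.02 and 0.24, of the hormone list between -0.07 and 0.04 and of the transcription factors between -0.14 and 0.13. With the replicate number as a block, limma called 0 features and the members' median was -0.11. The deviations of same-numbered arrays had r of 0.02, -0.04 and -0.02, so no shared deviation was seen. These values cannot show whether the animals were paired or handled together. With 3 animals a group, the median SE of the members was 0.12, which limits what size of difference could be seen.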
